A study of Mus musculus with 12 samples.

Results

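The acute-phase genes described here are 10 genes for plasma proteins that the liver makes and secretes: the orosomucoids Orm1, Orm2 and Orm3, the serum amyloids Saa1, Saa2 and Saa3, lipocalin 2 (Lcn2), haptoglobin (Hp), hemopexin (Hpx) and amyloid P component (Apcs). They were selected on measured values, namely their already known FPKM in these livers, so every value of the 10 genes is a description and none is tested. FPKM is a number of sequenced fragments relative to transcript length and to the total of the library, so that levels of different genes can be compared. The 10 genes hold 28 of the 152210 rows of the deposited table and 10 of its 22170 gene names, and 9 of the 10 names passed the filter of a mean of at least 0.5 FPKM. Livers of 12 male C57BL/6J mice were sequenced, 3 in each of 4 groups, and the study's methods call the 3 livers of a group representative samples. All mice were housed 1 to a cage, were acclimated for 1 week on chow, received their diets for 16 weeks and were 21 weeks old. The ND group received a normal diet and the HFD group a high-fat diet. The CLE group received the high-fat diet with 1.5% (w/w) of an ethanol extract of Chrysanthemum leaves, and the LU group received it with 0.003% (w/w) of luteolin, a flavonoid constituent of those leaves. Mice are named below by group and mouse number, and equal numbers in different groups are different animals.

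The acute-phase response is a program by which hepatocytes change the secretion of plasma proteins during inflammation. Interleukin-6, acting through gp130 and STAT3, and interleukin-1 and tumour necrosis factor, acting through NF-kappaB, drive it together with C/EBP factors and glucocorticoids. Positive acute-phase proteins such as the serum amyloids become more abundant, and negative ones such as albumin become less abundant. Orosomucoids bind drugs and lipids in plasma, serum amyloids travel on high-density lipoprotein, lipocalin 2 binds bacterial siderophores, and haptoglobin and hemopexin capture free hemoglobin and heme.

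The 3 orosomucoid genes lie side by side on chromosome 4 and are close copies. Their coding sequences of 621, 621 and 618 bases in GENCODE M21 were 89.9% identical between Orm1 and Orm2, 86.0% between Orm1 and Orm3, and 87.9% between Orm2 and Orm3. The first 60 coding bases show how the copies can be told apart, with the 12 positions that differ among the 3 in capitals.
Orm1: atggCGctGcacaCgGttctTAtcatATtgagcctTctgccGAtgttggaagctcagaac
Orm2: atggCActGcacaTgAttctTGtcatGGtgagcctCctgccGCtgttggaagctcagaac
Orm3: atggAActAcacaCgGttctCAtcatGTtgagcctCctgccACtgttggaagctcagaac
Of the stretches of 100 bases, the length of a read, 6.95% of those of the Orm1 transcript occurred letter for letter in another copy, 6.95% of those of Orm2 and 0 of the 674 of Orm3. Saa1 and Saa2, neighbours on chromosome 7, were 95.1% identical over 366 coding bases and shared 0 stretches of 100 bases. Fragments with mismatches were not examined, and the sharing of fragments between copies is set by the authors' software.

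The 250 bases before the transcription start are shown for the close copies Orm2 and Orm3, and Saa1 and Saa2. Their levels differed several-fold between ND and HFD livers, as did those of Saa3 and Lcn2, whose windows were searched but are not shown. The windows shown were taken from RefSeq as follows. They were taken from RefSeq on GRCm38.p6, with matches to the C/EBP letters TTNNGNAA on either strand in capitals. RefSeq promoter windows were matched for 8 of the 10 genes, all but Orm1 and Hp.
Orm2 (chr4:63362199-63362448, plus strand): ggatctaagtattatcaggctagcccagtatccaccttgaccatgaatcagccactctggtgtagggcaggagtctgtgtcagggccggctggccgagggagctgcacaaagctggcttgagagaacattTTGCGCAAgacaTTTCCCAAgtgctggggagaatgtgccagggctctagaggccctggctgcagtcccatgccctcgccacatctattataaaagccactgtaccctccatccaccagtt
Orm3 (chr4:63355908-63356157, plus strand): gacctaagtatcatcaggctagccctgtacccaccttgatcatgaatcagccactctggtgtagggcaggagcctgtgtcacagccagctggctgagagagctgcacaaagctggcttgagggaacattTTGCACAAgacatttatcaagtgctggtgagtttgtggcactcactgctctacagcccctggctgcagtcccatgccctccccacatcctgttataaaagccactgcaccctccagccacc
Saa1 (chr7:46742981-46743230, minus strand): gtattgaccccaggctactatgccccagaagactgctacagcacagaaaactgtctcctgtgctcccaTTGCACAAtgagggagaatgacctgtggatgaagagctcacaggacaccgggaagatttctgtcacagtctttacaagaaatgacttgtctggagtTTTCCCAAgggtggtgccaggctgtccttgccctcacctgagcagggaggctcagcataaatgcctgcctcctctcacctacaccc
Saa2 (chr7:46751583-46751832, plus strand): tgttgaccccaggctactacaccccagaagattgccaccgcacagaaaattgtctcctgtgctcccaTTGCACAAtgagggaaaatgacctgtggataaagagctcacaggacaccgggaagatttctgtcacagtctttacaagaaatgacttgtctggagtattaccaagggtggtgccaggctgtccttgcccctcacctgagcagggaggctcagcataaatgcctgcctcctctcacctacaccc
The Orm2 and Orm3 windows were 85.5% identical, and the Saa1 and Saa2 windows 94.8%. The capitals of Orm3, Saa1 and Saa2 share the letters TTGCACAA, which lay 121 to 114 bases before the start in Orm3, 182 to 175 in Saa1 and 183 to 176 in Saa2, and Orm2 has TTGCGCAA 120 to 113 bases before its start. In Saa3 and Lcn2 the matches have other letters than these. A match to the C/EBP letters occurred in 7 of the 8 windows, all but that of Apcs, and in 36.8% of 32536 promoter windows of the same length. The STAT letters TTCNNNGAA matched only in Apcs among the 8 windows, against 7.04% of all windows, and the TATA letters TATAAA in Orm2 and Orm3, against 12.3%. A stretch can satisfy more than 1 of these letter patterns, but no match of 1 pattern overlapped that of another in the 8 windows. These are matches of letters only, and windows of close copies are not independent.

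In the deposited table the names of the orosomucoid rows do not follow the genes. Of the FPKM in the 8 rows named Orm3, 98.4% belonged to 4 rows that give the annotated transcript of Orm1 as their reference, with a mean of 772 FPKM over the 12 livers, and 12.9 FPKM belonged to Orm3. The 2 rows named Orm1 lay on the opposite strand and held a mean of 0.0539 and 0.397 FPKM. Orm1 and Orm3 are therefore given by the reference transcript of each row, and their sum with Orm2 over all rows of the 3 names is the Orm family sum. By name alone, Orm3 would have a mean of 777 FPKM in ND, 1006 in HFD, 654 in CLE and 705 in LU livers, values that are nearly all Orm1. On GRCm38, Orm1 (ENSMUSG00000039196) lies at chr4:63344560-63348163, Orm3 (ENSMUSG00000028359) at chr4:63356162-63359511 and Orm2 (ENSMUSG00000061540) at chr4:63362449-63365878, all on the plus strand. The authors' build was not given in the sources used here, and 85.5% of the known transcripts had the start and end of this annotation.

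Some facts of the whole table touch every value below. Read counts cannot be recovered from these FPKM, so the depth of the libraries is unknown. The FPKM of all rows with a gene name summed to between 1698823 and 5575486 in a liver, with the lowest total in an ND liver. Albumin is listed at 0 in 11 of 12 livers, so a 0 can be a failed estimate. The dependence of a library on the GC content of transcripts (Spearman's rho across genes) ran from -0.37 to -0.14 in ND and HFD livers and from 0.16 to 0.48 in CLE and LU livers, which cannot be told apart from the 2 treatments. Of 11566 genes tested, limma called 1156 higher and 244 lower in HFD than in ND livers (82.6% higher), but 620 and 504 (55.2%) with median-of-ratios scaling, 585 and 465 (55.7%) with quantile normalization and 635 and 525 (54.7%) with a GC correction. The median log2 difference of all genes between HFD and ND livers was 0.11 as deposited. Between CLE and HFD livers 317 genes were higher and 381 lower (45.4% higher), or 119 and 229 (34.2%) with the GC correction. In whole tissue, fewer cells of a type and less RNA per cell cannot be told apart.

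Orm1 was the most abundant orosomucoid and differed least between the diets. By reference transcript it stood at 669, 849.6 and 811 FPKM in the ND livers, at 1144, 971 and 806 in the HFD livers, at 662, 586 and 691 in the CLE livers and at 568, 648 and 864 in the LU livers. The HFD range began just below the highest 2 ND livers, so those groups overlapped, and every CLE liver lay below every HFD liver. On the log2(FPKM + 1) scale the difference was 0.32 between HFD and ND (SE 0.18), -0.58 between CLE and HFD (SE 0.16) and -0.50 between LU and HFD (SE 0.23), with LU and HFD overlapping. The difference between HFD and ND was 0.16 with median-of-ratios scaling, 0.19 with the GC correction, 0.20 with only the row of highest mean kept and 0.19 without HFD mouse 12.

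The Orm1 difference was larger in an assembled transcript than in the annotated one. The annotated transcript was at 485 ± 26.1 FPKM in ND, 568 ± 130 in HFD, 512 ± 40.2 in CLE and 497 ± 39.1 in LU livers (mean ± SD, n = 3). A longer transcript assembled by the authors at chr4:63344460-63351928, which runs past the annotated end of Orm1, was at 191, 314 and 304 FPKM in ND, 396, 404 and 327 in HFD, 177, 44.3 and 135 in CLE, and 71.7, 171 and 299 in LU livers. It made up 34.6% to 41.6% of the Orm1 FPKM in HFD livers and 7.57% to 26.7% in CLE livers. With only the row of highest mean kept for each gene, the Orm1 difference was -0.13 between CLE and HFD and -0.17 between LU and HFD.

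The Orm family sum followed Orm1. It stood at 675, 858 and 819.8 FPKM in ND, 1286, 1066 and 888 in HFD, 724, 612 and 732 in CLE, and 602, 706 and 924 in LU livers. All HFD livers lay above all ND and all CLE livers, while LU mouse 8 exceeded HFD mouse 18. The log2 difference was 0.45 between HFD and ND (SE 0.19, or 0.29 with median-of-ratios scaling), -0.63 between CLE and HFD (SE 0.18) and -0.54 between LU and HFD (SE 0.24). With the highest row alone, the differences from HFD were -0.20 for CLE and -0.24 for LU.

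Orm2 and Orm3 were minor copies with much larger differences. Orm2 was at 5.42, 7.25 and 7.23 FPKM in ND livers, 102, 66.1 and 52.7 in HFD livers, 53.3, 21.1 and 32.0 in CLE livers, and 24.6, 46.1 and 46.4 in LU livers. All 9 livers on the high-fat diet, with or without an additive, were above the 3 ND livers. The mean in HFD livers was 11.1 times that in ND livers, a log2 difference of 3.24 (SE 0.30). CLE livers differed from HFD livers by -1.07 (SE 0.46) with CLE mouse 2 above HFD mouse 18, and LU livers by -0.90 (SE 0.40) with no overlap.

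By reference transcript, Orm3 had the largest difference of the 10 genes. It was at 0.278, 0.747 and 0.813 FPKM in ND, 39.9, 28.2 and 29.0 in HFD, 8.35, 5.45 and 8.78 in CLE, and 9.03, 11.7 and 13.0 in LU livers. The 4 groups did not overlap and stood in the order ND, CLE, LU, HFD. The HFD mean of 32.4 FPKM was 52.9 times the ND mean of 0.613 FPKM, a log2 difference of 4.37 (SE 0.22) that was 5.59 with a pseudocount of 0.1 and 3.64 with the highest row alone. The HFD mean was 4.30 times that of CLE livers (log2 difference -1.98, SE 0.25) and 2.88 times that of LU livers (-1.44, SE 0.21). CLE livers were below LU livers by 0.53 on the log2 scale (-0.53, SE 0.24), with LU mouse 2 at 9.03 and CLE mouse 11 at 8.78 FPKM as the nearest pair. An assembled transcript at chr4:63344465-63359511 runs from before Orm1 to the annotated end of Orm3, and was counted with Orm1, its reference. It was at 1.92, 6.72 and 6.46 FPKM in ND and 6.85, 7.21 and 5.25 in HFD livers. In CLE livers it was at 3.12, 1.96 and 3.36, and in LU livers at 1.10, 6.75 and 10.8 FPKM. In each ND liver it exceeded Orm3, so the size and rank of the Orm3 difference and the order of the 4 groups depend on that assignment.

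The make-up of the family differed between diets as well as its sum, with Orm1 the largest part in every liver. The Orm1 share was 99.0% to 99.1% of the family sum in ND, 88.9% to 91.1% in HFD, 91.4% to 95.6% in CLE and 91.8% to 94.4% in LU livers. Orm2 was 0.803% to 0.882% of the family sum in ND livers, 5.93% to 7.92% in HFD, 3.45% to 7.35% in CLE and 4.09% to 6.53% in LU livers. The Orm3 share, with the same assignment of rows, was 0.0412% to 0.0992% in ND, 2.64% to 3.27% in HFD, 0.891% to 1.20% in CLE and 1.41% to 1.66% in LU livers. The Orm3 share in HFD livers did not overlap with that of any other group.

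**Figure D1:**
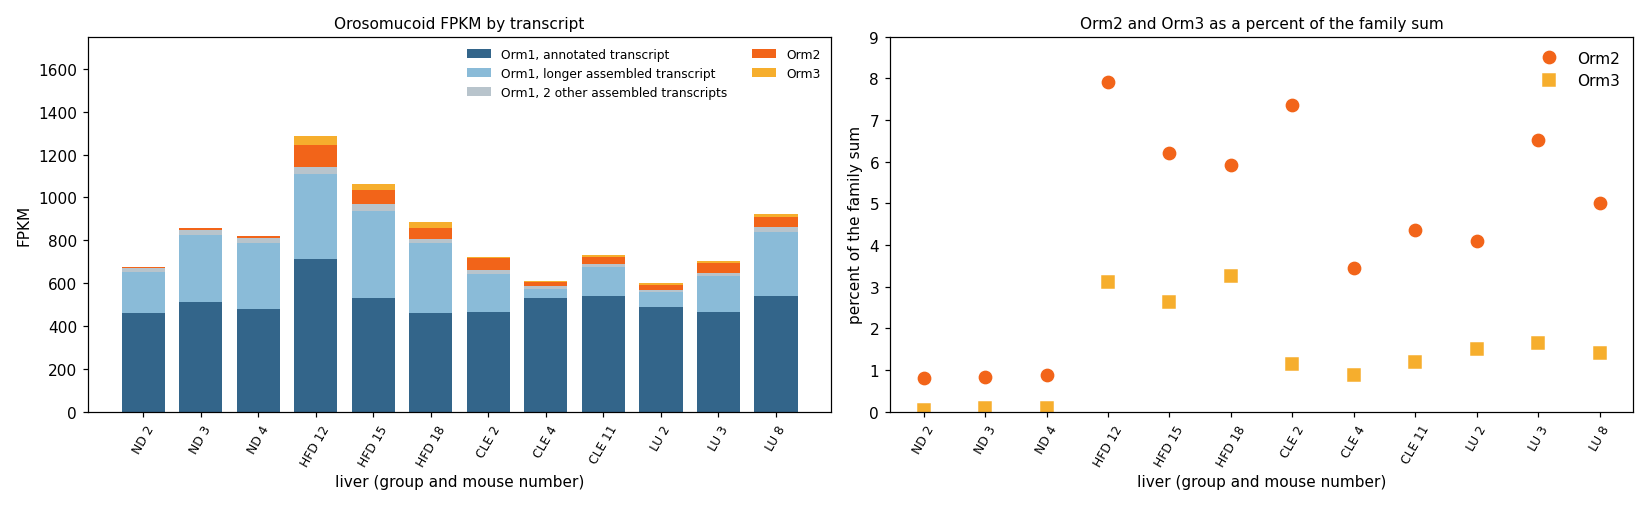
Orosomucoid FPKM in each of the 12 livers, stacked by transcript from 0 (left), and Orm2 and Orm3 as a percent of the family sum in the same livers (right). Each bar or symbol is 1 liver, named by group and mouse number. The longer assembled Orm1 transcript shrinks to 44.3 FPKM in CLE mouse 4, and the Orm3 share is highest in the 3 HFD livers, at 2.64% to 3.27%.

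Saa1 and Saa2, the inducible serum amyloids of plasma, rank next in level and ran in parallel from liver to liver. Saa1 (ENSMUSG00000074115, chr7:46740497-46742980) was at 14.4, 29.9 and 35.5 FPKM in ND livers, 294, 146 and 116 in HFD livers, 171, 47.4 and 133 in CLE livers, and 89.2, 248 and 185 in LU livers. All livers on the high-fat diet were above all ND livers, and the CLE and LU ranges overlapped that of HFD. The HFD mean was 6.97 times the ND mean, a log2 difference of 2.73 (SE 0.55). CLE livers differed from HFD livers by -0.73 (SE 0.69) and LU livers by -0.09 (SE 0.59). The CLE difference was -1.10 without CLE mouse 2, -0.18 without CLE mouse 4 and -0.34 without HFD mouse 12. The LU difference ran from -0.41 without LU mouse 3 to 0.32 without LU mouse 2, and its sign turned also without HFD mouse 12 (0.30).

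Saa2 (ENSMUSG00000057465, chr7:46751790-46754313) was at 3.71, 15.3 and 14.6 FPKM in ND, 112, 69.7 and 49.1 in HFD, 97.0, 17.6 and 67.1 in CLE, and 47.2, 145 and 61.4 in LU livers. CLE mouse 4 was close to the ND livers, and LU mouse 3 was above every HFD liver. The log2 difference was 2.79 between HFD and ND (SE 0.68), -0.56 between CLE and HFD (SE 0.80) and 0.05 between LU and HFD (SE 0.59). The CLE difference was -1.05 without CLE mouse 2, 0.15 without CLE mouse 4 and -0.25 without HFD mouse 12. The LU difference ran from -0.43 without LU mouse 3 to 0.38 without LU mouse 2, and was also below 0 without HFD mouse 18 (-0.23). Saa1 was 1.71 to 3.88 times Saa2 over the 12 livers.

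Saa3, a serum amyloid made by macrophages and fat as well as by liver, stood lowest of the 10 genes on average. Saa3 (ENSMUSG00000040026, chr7:46711998-46715700) was at 1.41, 1.90 and 2.73 FPKM in ND, 13.5, 9.16 and 6.88 in HFD, 14.0, 8.72 and 20.9 in CLE, and 9.13, 37.1 and 7.27 in LU livers. It was the only serum amyloid of the 3 with a CLE mean above the HFD mean on the log2 scale. The difference was 1.83 between HFD and ND (SE 0.31), or 2.23 with a pseudocount of 0.1. It was 0.49 between CLE and HFD (SE 0.42) and 0.49 between LU and HFD (SE 0.74), both within overlapping groups. The CLE difference was 0.20 without CLE mouse 11, 0.79 without CLE mouse 4 and 0.28 without HFD mouse 18. The LU difference was -0.20 without LU mouse 3, 0.28 without HFD mouse 18, 0.76 without LU mouse 2 and 0.90 without LU mouse 8.

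Lipocalin 2, made by hepatocytes and stored in neutrophil granules, had the largest ratio of HFD to ND means after Orm3. Lcn2 (ENSMUSG00000026822, chr2:32384633-32388252) was at 1.10, 3.04 and 5.24 FPKM in ND livers, 55.4, 24.5 and 28.6 in HFD livers, 54.4, 9.13 and 17.3 in CLE livers, and 8.03, 23.4 and 38.2 in LU livers. The lowest CLE and LU livers approached the highest ND liver, and CLE mouse 2 reached the level of HFD mouse 12. The HFD mean was 11.6 times the ND mean, a log2 difference of 3.22 (SE 0.58). The differences from HFD were -0.68 for CLE (SE 0.80) and -0.77 for LU (SE 0.72). With livers left out, the CLE difference ran from -1.36 without CLE mouse 2 to -0.13 without CLE mouse 4 and the LU difference from -1.24 without LU mouse 8 to -0.18 without LU mouse 2. Without HFD mouse 12 they were -0.34 and -0.42.

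Haptoglobin and hemopexin were the most abundant of the 10 genes and differed by less. Hp (ENSMUSG00000031722, chr8:109575128-109579172) was at 2150.4, 1396 and 1846 FPKM in ND, 3474, 2387 and 2873 in HFD, 2612, 3248 and 3026 in CLE, and 2505, 3228 and 3795 in LU livers. All 9 livers on the high-fat diet were above the ND livers, and the CLE and LU means were not below the HFD mean. The log2 difference was 0.70 between HFD and ND (SE 0.24), 0.04 between CLE and HFD (SE 0.18) and 0.12 between LU and HFD (SE 0.23). The CLE difference ran from -0.10 without HFD mouse 15 to 0.17 without HFD mouse 12 and was also negative without CLE mouse 4 (-0.03). The LU difference ran from -0.02 without LU mouse 8 to 0.28 without LU mouse 2 and was also negative without HFD mouse 15 (-0.01). With quantile normalization both were below 0, at -0.03 and -0.01, and the CLE difference was -0.14 with the GC correction.

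Hpx (ENSMUSG00000030895, chr7:105591613-105600137) was at 2294, 1938 and 2158 FPKM in ND, 3071, 2498 and 2673 in HFD, 2349, 2295 and 2663 in CLE, and 2328, 2830.3 and 3269 in LU livers. HFD livers lay just above ND livers, and the CLE range, like that of LU, overlapped the HFD range. The log2 difference was 0.37 between HFD and ND (SE 0.11), but 0.21 with median-of-ratios scaling and 0.22 with the GC correction. It was -0.17 between CLE and HFD (SE 0.11), or -0.35 with quantile normalization and -0.09 without HFD mouse 12. It was 0.02 between LU and HFD (SE 0.17), or -0.15 with quantile normalization and -0.01 with the GC correction. That LU difference ran from -0.09 without LU mouse 8 to 0.15 without LU mouse 2 and was also negative without HFD mouse 15 (-0.04).

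Apcs, serum amyloid P component and a classical acute-phase protein of the mouse, was the exception in direction. Apcs (ENSMUSG00000026542, chr1:172893961-172895041) was at 56.6, 76.7 and 45.2 FPKM in ND, 45.8, 44.1 and 40.4 in HFD, 39.2, 41.5 and 35.6 in CLE, and 36.9, 31.7 and 55.9 in LU livers. ND livers overlapped HFD livers through ND mouse 4. The log2 difference was -0.41 between HFD and ND (SE 0.22), or -0.22 without ND mouse 3. It was -0.16 between CLE and HFD (SE 0.08), or -0.02 with the GC correction, -0.24 with the highest row alone and -0.10 without CLE mouse 11. It was -0.10 between LU and HFD (SE 0.24), or 0.04 with the GC correction, and ran from -0.33 without LU mouse 8 to 0.06 without LU mouse 3.

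**Figure D2:**
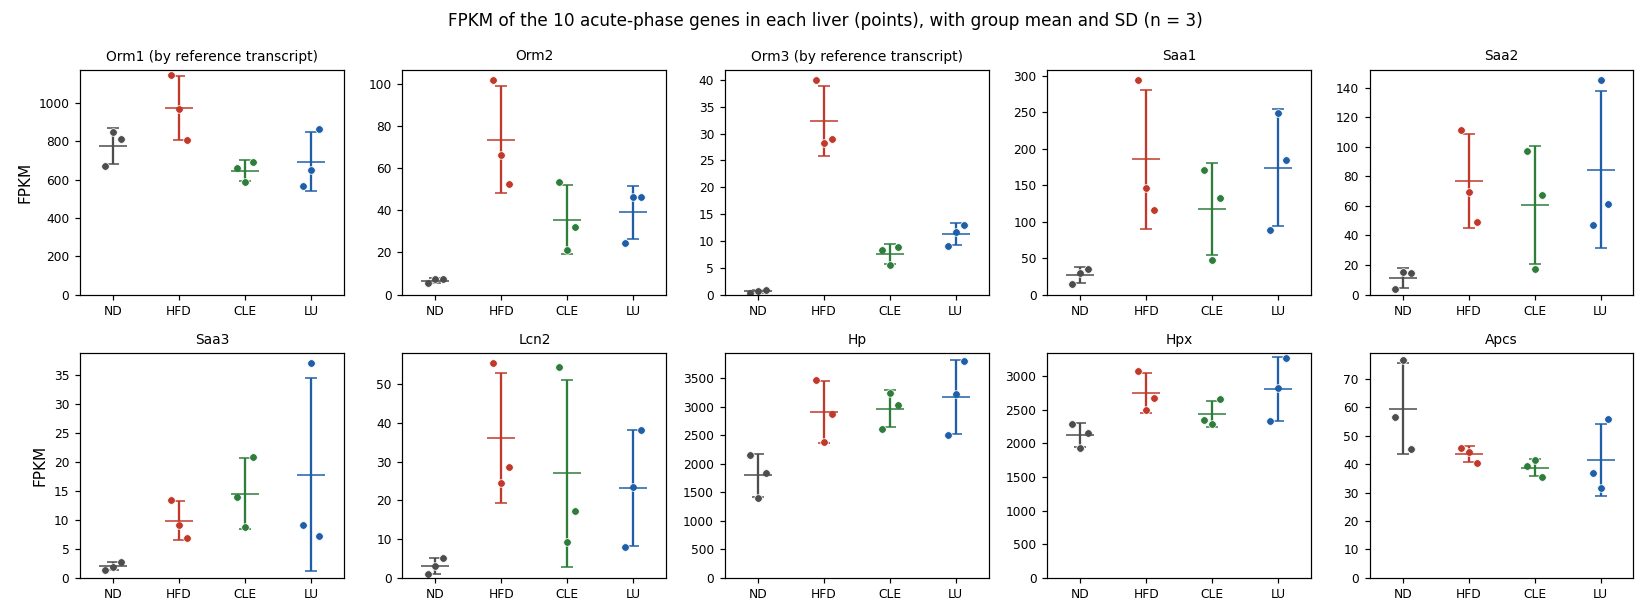
FPKM of the 10 genes in each liver on linear axes that start at 0, with Orm1 and Orm3 by reference transcript. Points are livers, set from left to right by mouse number, and the bar and whiskers are the mean and SD of 3 livers. For Orm3 the CLE livers sit at 5.45 to 8.78 and the HFD livers at 28.2 to 39.9 FPKM, while for Saa1, Saa2, Lcn2 and Hp the HFD, CLE and LU points overlap.

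Counted over the 10 genes, with Orm1 and Orm3 by reference transcript, 8 had every HFD liver above every ND liver, beside 29.1% of all tested genes. The median log2 difference of the 10 was 2.28, against 0.11 over all genes. The exceptions were Orm1 and Apcs, which overlapped. In the comparison of CLE with HFD, every CLE liver was below every HFD liver for 2 of the 10 genes, Orm1 and Orm3, beside 15% of all genes, and the median difference was -0.57 against 0.02. In that of LU with HFD it was 2 of 10, Orm2 and Orm3, beside 16.9% of all genes, with a median of -0.10 against -0.02. Orm3 was thus the gene of the 10 that was separated in all 3 comparisons. The HFD livers are part of all 3 comparisons, and these counts use the measurements by which the genes were chosen, so nothing is read from them.

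**Figure D3:**
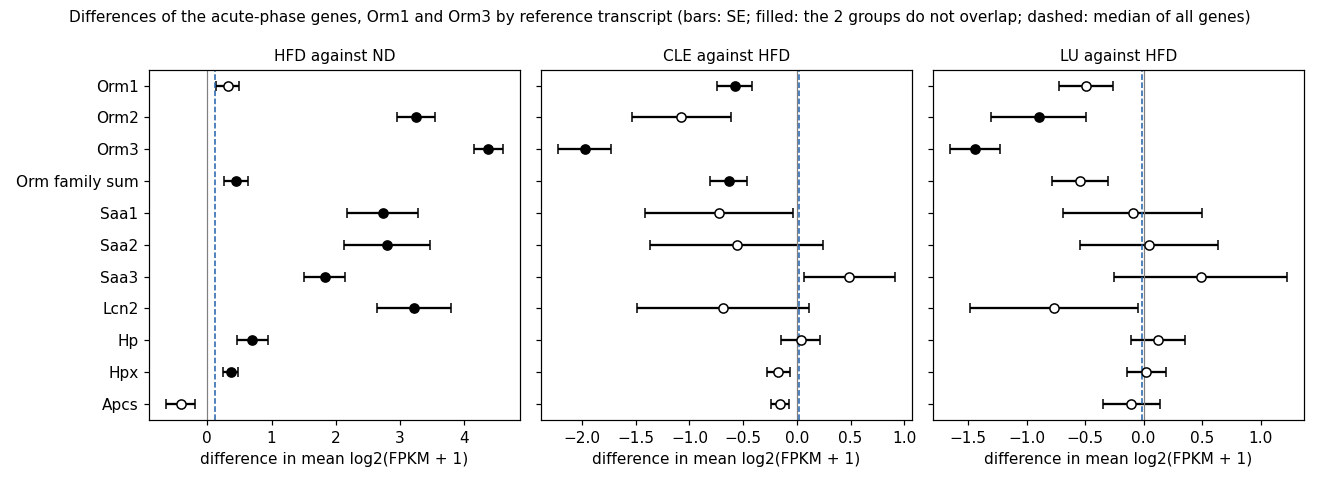
Difference in mean log2(FPKM + 1) of the 10 genes and the Orm family sum between HFD and ND, CLE and HFD, and LU and HFD livers, on a separate horizontal scale for each comparison. Circles are differences, bars are SE (n = 3 livers a group), filled circles mark groups that do not overlap, and the dashed line is the median of all tested genes. Orm3 lies farthest from 0 in each comparison, at 4.37, -1.98 and -1.44.

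Single mice shared much of the spread within groups. HFD mouse 12 was the highest HFD liver for all 10 genes. CLE mouse 4 was the lowest CLE liver for 8 of 10 genes, all but Hp and Apcs, and LU mouse 2 was the lowest LU liver for 8 of 10, all but Saa3 and Apcs. In the ND group, mouse 2 was lowest for the 7 genes from Orm1 to Lcn2. As a share of the group mean, the SD ran from 41.0% to 54.1% for Saa1, 41.4% to 66.2% for Saa2 and 46.3% to 89.7% for Lcn2 over the 4 groups. It ran from 8.14% to 21.1% for Hp and Hpx.

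Across the 12 livers, which share their group structure, Pearson's r of log2(FPKM + 1) was 0.98 between Saa1 and Saa2, 0.97 between Orm2 and Orm3, 0.95 between Lcn2 and Orm2 and 0.94 between Saa1 and Orm2. With Orm1 by reference transcript it was lower, from -0.13 for Saa3 to 0.41 for Apcs. Apcs had an r below 0 with each of the 8 genes other than Orm1, from -0.80 with Saa3 to -0.33 with Hpx. By the same measure, the 5 tested genes most like the Orm family sum were Mospd1 (r = 0.95), Gm14325 (0.93), Gtpbp8 (0.93), Orc5 (0.93) and Defb1 (0.92). Mospd1 was at 9.62 ± 0.699 FPKM in ND, 12.5 ± 1.50 in HFD, 8.07 ± 1.01 in CLE and 9.11 ± 1.72 in LU livers (n = 3). The 5 most like the sum of Saa1 and Saa2 were Spred1 (0.96), an inhibitor of Ras signalling, Snx1 (0.96), Ubd (0.95), a cytokine-inducible ubiquitin-like protein, Shisa5 (0.95) and Vps29 (0.94). Ubd was at 1.36 ± 0.770 FPKM in ND, 7.65 ± 2.72 in HFD, 8.59 ± 5.71 in CLE and 12.0 ± 6.21 in LU livers.

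Other genes of the acute-phase response were taken from 6 lists of 70 genes, of which 66 were tested with limma over all genes. Between HFD and ND livers 9 of the 66 rose and 0 fell at an adjusted p under 0.05, beside 9.99% and 2.11% of all tested genes. An unadjusted limma p of 0.05 was passed by 20 of the 66, beside 3149 of all 11566 tested genes. The median log2 fold change of the 66 was 0.18, against 0.11 over all genes.

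Of 20 other positive acute-phase genes, 2 rose and 0 fell with the high-fat diet, beside 9.99% and 2.11% of all tested genes. Saa4 is counted in this list although it is the constitutive serum amyloid. It was at 55.9, 77.3 and 79.1 FPKM in ND and 320, 265 and 228 in HFD livers, with no overlap. Its log2 fold change was 1.93 (SE 0.19, limma adjusted p = 8.31e-05). Steap4, a metalloreductase induced by inflammation, was at 15.9, 35.8 and 19.8 FPKM in ND and 62.0, 61.7 and 65.0 in HFD livers (log2 fold change 1.45, SE 0.31, limma adjusted p = 0.010), and lost the call without ND mouse 2 (adjusted p = 0.053) and with the highest row alone (adjusted p = 0.13). The other 18, among them Crp, Serpina3n, the fibrinogen chains, Lbp and hepcidin (Hamp), did not pass.

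Of 8 negative acute-phase genes, 2 rose and 0 fell, beside 9.99% and 2.11% of all tested genes. Albumin is counted among the 8 and the 66, but is listed at 0 in all ND and HFD livers and could not be called between them. Serpina6, corticosteroid-binding globulin, was at 32.6, 48.0 and 36.8 FPKM in ND and 110, 100.3 and 113 in HFD livers, with a log2 fold change of 1.46 (SE 0.18, limma adjusted p = 0.00034). Pon1, the paraoxonase of high-density lipoprotein, had a log2 fold change of 0.49 (SE 0.13, limma adjusted p = 0.026). That call was lost with median-of-ratios scaling, the GC correction or the highest row alone, and without any 1 of the 6 livers compared.

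Between HFD and ND livers, the signalling genes called were 3 of the IL-1, TNF and NF-kappaB list, and 2 of these calls were lost under several settings. Of 9 tested genes of IL-6, gp130 and STAT3 signalling 0 passed with limma and 2 passed an unadjusted p of 0.05. The alpha chain of the interleukin-6 receptor, Il6ra, was at 12.1, 9.45 and 12.5 FPKM in ND and 16.4, 20.2 and 13.4 in HFD livers (log2 fold change 0.51, SE 0.19, limma adjusted p = 0.10). The other of the 2 was Lifr, a receptor that pairs with gp130, named after its values were seen, at 50.4, 81.6 and 41.6 FPKM in ND and 25.7, 23.1 and 26.7 in HFD livers with no overlap (log2 fold change -1.11, SE 0.37, limma adjusted p = 0.070). Stat3 was at 28.1, 34.1 and 42.2 FPKM in ND and 26.0, 36.0 and 43.2 in HFD livers. Of 10 genes of IL-1, TNF and NF-kappaB signalling 3 rose, beside 9.99% of all tested genes. The interleukin-1 receptor Il1r1 was at 3.80, 6.74 and 3.88 FPKM in ND and 14.1, 11.3 and 12.8 in HFD livers, a log2 fold change of 1.27 (SE 0.24, limma adjusted p = 0.0052) that missed the threshold with the highest row alone (adjusted p = 0.053). The tumour necrosis factor receptor Tnfrsf1a (0.56, SE 0.15) and the NF-kappaB inhibitor Tnfaip3 (0.54, SE 0.15) passed with limma adjusted p of 0.027 and 0.037, and both lost the call with median-of-ratios scaling, quantile normalization, the GC correction or the highest row alone. Tnfrsf1a also lost it without ND mouse 2, ND mouse 4, HFD mouse 12 or HFD mouse 18, and Tnfaip3 with no filter or without any 1 of the 6 livers. Il6 and Tnf were under the filter.

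Of 10 hepatic transcription factors and glucocorticoid genes 0 passed with limma and 0 passed an unadjusted p of 0.05. Cebpb, a C/EBP factor of the acute phase, was at 15.5, 8.93 and 10.3 FPKM in ND and 9.75, 11.3 and 13.2 in HFD livers. Of 9 receptors and haem partners 2 rose, beside 9.99% of all tested genes. Heme oxygenase 1 (Hmox1) was at 7.72, 7.88 and 7.21 FPKM in ND and 15.2, 11.7 and 15.4 in HFD livers (log2 fold change 0.80, SE 0.14, limma adjusted p = 0.0027). Biliverdin reductase B (Blvrb) had a log2 fold change of 0.82 (SE 0.20, limma adjusted p = 0.021) and lost the call with median-of-ratios scaling and without ND mouse 3, ND mouse 4, HFD mouse 12 or HFD mouse 18. Biliverdin reductase A (Blvra) did not pass, nor did Cd163, the haptoglobin-hemoglobin receptor, or Lrp1, the receptor of the hemopexin-heme complex. Saa4, Serpina6 and Hmox1 passed between HFD and ND livers under all 11 other settings and with each of the 12 livers left out in turn.

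Between CLE and HFD livers 1 of the 66 genes rose and 2 fell, beside 2.74% and 3.29% of all tested genes. An unadjusted limma p of 0.05 was passed by 20 of the 66, beside 3407 of all 11566 tested genes. Saa4 was at 123, 97.8 and 161 FPKM in CLE livers, below all HFD livers and above all ND livers, with a log2 fold change of -1.10 (SE 0.19, limma adjusted p = 0.017). Serpina6, at 61.7, 64.9 and 67.8 FPKM, also lay between the ND and HFD livers (-0.73, SE 0.18, limma adjusted p = 0.041). Apoa1, the main protein of high-density lipoprotein, was at 4259, 3384 and 3480.3 FPKM in HFD and 5295, 8861 and 6170 in CLE livers (0.84, SE 0.20, limma adjusted p = 0.037). The call of Saa4 was lost without HFD mouse 12, HFD mouse 15 or CLE mouse 4. Those of Serpina6 and Apoa1 were lost without ND mouse 4, any 1 HFD mouse, CLE mouse 4 or CLE mouse 11, and with the GC correction, no filter or the highest row alone, and that of Apoa1 also with quantile normalization or the 2 groups alone.

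Between LU and HFD livers 1 of the 66 genes rose and 0 fell, beside 0.303% and 0.726% of all tested genes. An unadjusted limma p of 0.05 was passed by 19 of the 66, beside 2346 of all 11566 tested genes. Socs3, the feedback inhibitor of gp130 and STAT3 signalling, was at 2.70, 3.60 and 4.02 FPKM in HFD, 10.9, 12.8 and 7.21 in LU and 5.66, 9.66 and 4.55 in CLE livers. Its log2 fold change was 1.33 in LU (SE 0.25, limma adjusted p = 0.030) and 0.74 in CLE (SE 0.25, limma adjusted p = 0.084). The LU call was lost without any 1 HFD mouse, LU mouse 2 or LU mouse 3, and with no filter or the highest row alone. Saa4, at 154, 125 and 160.4 FPKM in LU livers, had a log2 fold change of -0.88 (SE 0.19, limma adjusted p = 0.054), and Cebpb of 0.81 (SE 0.25, limma adjusted p = 0.12). Between CLE and LU livers limma called 0 of the 66 genes, beside 0.00865% higher and 0% lower of all tested genes. An unadjusted limma p of 0.05 was passed by 4 of the 66, beside 508 of all 11566 tested genes. CLE and luteolin were given at different doses of different composition, so their values stand side by side.

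**Figure D4:**
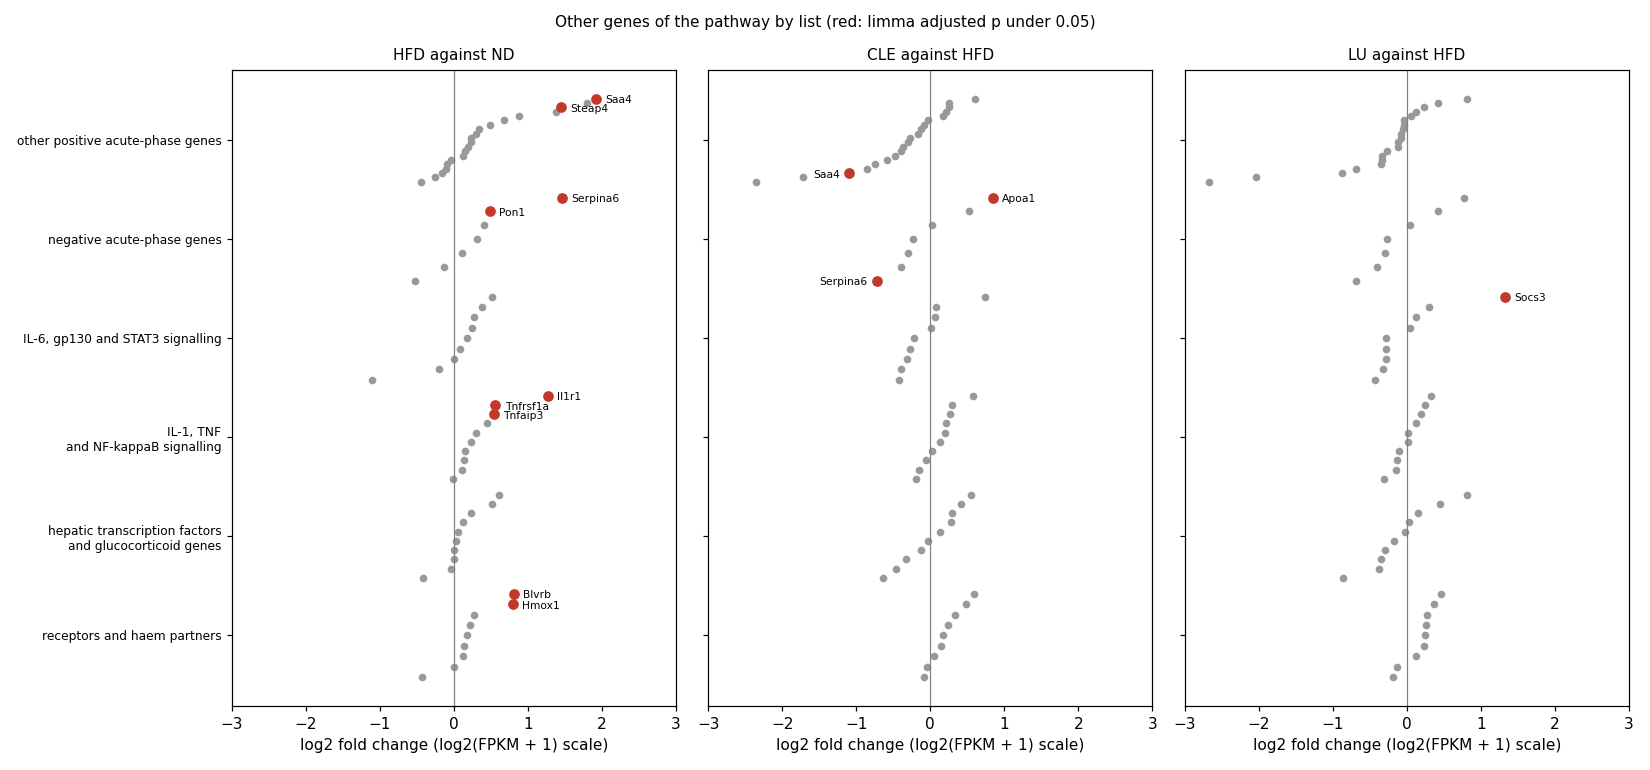
Log2 fold change on the log2(FPKM + 1) scale (horizontal) of each tested gene of the 6 lists (rows) between HFD and ND, CLE and HFD, and LU and HFD livers. Each point is a gene, spread vertically by rank within its list, red and named where the limma adjusted p is under 0.05, and albumin, listed at 0 in 11 livers, is left out. The 9 red points between HFD and ND are all to the right of 0, led by Saa4 at 1.93.

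Markers of other cell types were summed in the same livers. The 10 neutrophil markers summed to 2.93 to 4.81 FPKM in ND, 5.70 to 8.75 in HFD, 9.95 to 15.9 in CLE and 4.16 to 10.8 in LU livers, with 5 of 10 under 0.5 FPKM in every liver and the defining Ly6g at 0 in all. Every HFD liver was above every ND liver in that sum, and every CLE liver was above every HFD liver, but single markers did not all follow. S100a8 was at 0.960 to 1.46 FPKM in ND, 1.35 to 4.20 in HFD and 3.67 to 7.74 in CLE livers. S100a9 and Csf3r also overlapped between ND and HFD livers. The 7 macrophage and Kupffer cell markers summed to 65.7 to 77.0 FPKM in ND, 86.7 to 120.2 in HFD, 100.2 to 122 in CLE and 70.1 to 117 in LU livers. Of the 5 adipocyte markers, Adipoq, Lep and Plin1 reached at most 0.759, 0.187 and 0.338 FPKM, all in LU livers. The sum of that list was almost all Car3, which hepatocytes also express, with 414 to 883 FPKM in ND, 1396 to 1896 in HFD, 869 to 1358 in CLE and 713 to 1885 in LU livers. The 4 endothelial markers summed to 29.8 to 34.3 FPKM in ND, 37.3 to 42.9 in HFD, 34.8 to 48.7 in CLE and 37.0 to 49.6 in LU livers. The 4 stellate cell markers summed to 68.7 to 97.7 FPKM in ND, 113 to 147 in HFD, 116 to 173 in CLE and 116 to 154 in LU livers. The erythroid markers, of which 3 of 5 had a row, summed to 62.0 to 78.3 FPKM in ND, 94.7 to 129 in HFD, 93.2 to 143 in CLE and 88.1 to 126 in LU livers. In the sums of these 3 lists every liver on the high-fat diet was above every ND liver, but single markers did not all follow. The endothelial marker Kdr was at 8.58, 9.97 and 8.85 FPKM in ND and lower, at 6.71, 8.10 and 7.73, in HFD livers. The erythroid marker Alas2 overlapped between ND (34.3 to 40.4 FPKM) and CLE livers (35.9 to 41.5). The 4 cholangiocyte markers summed to 1.36 to 2.47 FPKM in ND, 1.79 to 2.63 in HFD, 2.78 to 4.21 in CLE and 2.13 to 3.45 in LU livers. Every CLE liver was above every ND and HFD liver in that sum. Epcam alone overlapped between HFD (0.393 to 0.938 FPKM) and CLE livers (0.677 to 1.40), and Krt7 between ND and CLE livers. Of the 6 hepatocyte markers, 5 were abundant in every liver and albumin was listed at 0 in 11. Their part in the differences of the 10 genes was not tested.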

How the data were processed

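Sequencing of RNA from 12 livers gave read pairs of 100 bases per read. The submitters' processing notes name CASAVA 1.8.2, Bowtie2 2.2.3, TopHat2 2.0.12 and Cufflinks 2.2.1. The authors deposited FPKM per assembled transcript, in which Cufflinks divides fragments between overlapping transcripts and between close copies. Normalization factors (DEGES, edgeR) are described in the methods, and whether the FPKM include them is not stated. Groups come from the labels, which call the CLE group CLL.

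FPKM were summed by deposited gene name, without the 6316 rows that have none (13.9% to 23.7% of a library's FPKM). Log2(FPKM + 1) was fitted with limma 3.58.1 in R 4.3.3 with the variance trend, 1 coefficient per group and all 12 livers, for the 11566 genes that averaged 0.5 FPKM or more, with Benjamini-Hochberg adjustment at 0.05, two-sided. Simulated data with known changes were used to test the fit. With 3 livers against 3, an exact permutation test cannot go below p = 0.1, so none was made. Each difference of a member is one of group means with its SE.

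The 10 genes, the lists and the tests were chosen with earlier results of these data known. Named are all 10 genes, every list gene that passed, and Il6ra, Stat3, Socs3, Cebpb and albumin as background, and Lifr was added after seeing the data. List genes named without a value were chosen for their known role. Of the list genes, Serpina3m and Cebpd had no row under the names used, and Trf, Fpr2 and Adgre1 were found under older names.

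Alternatives were a pseudocount of 0.1, no filter, a filter at 5 FPKM, median-of-ratios and quantile scaling, the row with the highest mean, rows on the opposite strand, in introns or without a reference left out, limma without the trend, the 2 groups alone, and each liver left out in turn. The GENCODE M21 gene of each reference transcript and a correction for GC content (smoothed deviation of each library, 11413 genes) were added after seeing the data. Letter patterns were searched in the 250 bases before each start in RefSeq (GRCm38.p6), and sequences were aligned with Biopython 1.88.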

Additional observations from a re-analysis of the deposited data

How the results depend on the processing

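Of 429 alternative values of the 10 genes and the Orm family sum, 418 moved by less than the spread between livers and 11 by more, and the moves are given with each gene. Values with 1 liver left out are among the 429 and, with 3 livers a group, cannot move by more than that spread. Some of them changed sign, as given with each gene. The settings that only reassign or leave out rows left most values unchanged. These counts therefore do not measure how firm the differences are. With the highest row alone the family sum differed by -0.20 between CLE and HFD and -0.24 between LU and HFD livers. The number of list genes called was less stable, and the cause was not tested. Between HFD and ND livers it was 9, but 4 with the highest row and 14 with the 2 groups alone, and 5 to 12 with each liver left out (5 without ND mouse 2, HFD mouse 12 or HFD mouse 18). Between CLE and HFD livers it was 3, but 1 with no filter or with the highest row, 7 with quantile normalization and 5 with the M21 gene assignment. Leaving out livers gave 0 (HFD mouse 12, HFD mouse 15 or CLE mouse 4) to 13 (CLE mouse 2), with 1 without ND mouse 4 or HFD mouse 18. Between LU and HFD livers it was 1, but 0 with no filter, 2 with a mean of at least 5 FPKM or quantile normalization and 3 with the 2 groups alone. Leaving out livers gave 0 (any HFD mouse or LU mouse 3) to 4 (CLE mouse 4), with 2 without CLE mouse 11. Between CLE and LU livers it was 0, but 1 with the highest row. No paired analysis was possible because the groups hold different animals, also where mouse numbers are equal. With 3 livers a group and an unknown depth, a difference within the spread of the livers does not show equal levels.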
